A study of Mus musculus with 2 samples.

Results

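The genes described here present peptides on MHC class I molecules: the light chain gene B2m, the heavy chain genes H2-D1 and H2-K1, the peptide transporter genes Tap1 and Tap2, the tapasin gene Tapbp, the immunoproteasome genes Psmb8, Psmb9 and Psmb10, and the transactivator gene Nlrc5. They were chosen by name as a pathway, 10 of 19078 gene symbols that could be assigned, and every one of them was found by its transcript structure. Of the 10 genes, 6 reached 1 FPKM (fragments per kilobase of transcript, scaled to the depth of the library) in at least 1 library, and H2-K1, Tap1, Tap2 and Nlrc5 stayed under that level in both. The RNA came from mesenchymal stem/progenitor cells of CD-1 bone marrow, from mice aged 3 months, cultured in DMEM with fetal bovine serum. There were 2 libraries: the label of one gives the genotype as PPAR-flox and that of the other as PPAR KO, and these are called floxed and deficient here. The labels give no Cre driver, no age at deletion and no number of mice, so how far 1 culture stands for its genotype is unknown. Pparg itself, the fat cell transcription factor gene that was targeted, stood at 6.86 FPKM in the floxed and 1.39 FPKM in the deficient library.

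In a class I molecule, a polymorphic heavy chain pairs with the invariant light chain and holds a short peptide on the cell surface for T cells to inspect. The proteasome cuts the peptides, a transporter of paired subunits carries them into the endoplasmic reticulum, and tapasin holds the empty molecule beside that transporter until a peptide is bound. Under interferon, cells exchange the constitutive catalytic subunits of the proteasome for the inducible ones, and most genes of the pathway are induced together, the heavy chain genes with help from NLRC5. Mesenchymal stromal cells are known to carry class I and, without interferon, little class II.

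Because 1 library stood for each genotype, no difference below has a replicate check and no p-value is given. The median gene or unnamed locus itself stood 1.81-fold (0.86 log2 units) above its floxed value in the deficient library. Differences are therefore given relative to that median, as deficient minus floxed on the scale log2(FPKM + 1), unless they are said to be as deposited, which is the same scale without subtracting the median. As deposited, the pseudocount understates differences of low genes. Relative to the median it moves such genes toward the lower side, since genes level as deposited stand below that median. A gene was called by size, at 2-fold, among 10637 genes and unnamed loci with at least 1 FPKM in a library and a transcript of at least 300 nt. Transcript coverage summed to 1383 and 1728 megabases in the floxed and deficient libraries. The bounds quoted are the ones the authors deposited for each transcript, and they describe the estimate within 1 library, not the spread between cultures.

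Of the 6 genes that passed the filter, B2m, Tapbp, Psmb8, Psmb9 and Psmb10 were lower by 2-fold or more in the deficient cells, and H2-D1 was not. Among all 10637 genes and loci, 11.7% were that much lower and 10.2% that much higher. As deposited, 4 of the 6 were at least 2-fold lower (B2m, Psmb8, Psmb9 and Psmb10) against 4.56% of all, and H2-D1 was just past 2-fold higher, against 42.1% of all. The median of the 6 was -2.0 (-1.14 as deposited), where the median of all genes and loci is 0 by construction. Psmb8 and Psmb9 passed the filter through the floxed library alone, so they had to differ, and the count over genes that passed is a description only.

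The sequence upstream of 5 of these genes is shown first: the light chain gene, the 2 classical heavy chain genes, Psmb9 and Psmb8. Any link between these sequences and the differences was not tested. Each run holds the 250 bases before the RefSeq start on the gene's strand (GRCm38.p6, a later build than that of the files). On chromosome 17 the distances between the starts of Tap1 and of Tapbp, H2-K1, Psmb9, Psmb8 and H2-D1 were the same to the base in the files and in the RefSeq table, so these windows lie at the starts used in the files. Capitals mark matches on either strand to 6 motifs, which may overlap: the interferon-stimulated element (GAAA, any 2 bases, GAAA), a shorter pair GAANNGAAA, the STAT dimer site TTCNNNGAA, the kappaB consensus, CCAAT, and TGACG, the core of a cyclic AMP element.

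B2m, chr2:122147437-122147686, plus strand: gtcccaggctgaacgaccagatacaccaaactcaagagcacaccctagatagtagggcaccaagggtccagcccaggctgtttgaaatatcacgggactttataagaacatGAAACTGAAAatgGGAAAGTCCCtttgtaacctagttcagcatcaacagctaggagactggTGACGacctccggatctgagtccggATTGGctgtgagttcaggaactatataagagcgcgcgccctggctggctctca

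H2-K1, chr17:34000334-34000583, minus strand: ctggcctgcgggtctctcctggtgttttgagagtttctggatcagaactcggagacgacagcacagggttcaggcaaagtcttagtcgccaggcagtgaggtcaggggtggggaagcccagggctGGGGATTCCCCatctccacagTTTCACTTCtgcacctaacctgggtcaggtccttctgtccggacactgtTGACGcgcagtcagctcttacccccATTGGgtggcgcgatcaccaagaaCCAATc

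H2-D1, chr17:35262844-35263093, plus strand: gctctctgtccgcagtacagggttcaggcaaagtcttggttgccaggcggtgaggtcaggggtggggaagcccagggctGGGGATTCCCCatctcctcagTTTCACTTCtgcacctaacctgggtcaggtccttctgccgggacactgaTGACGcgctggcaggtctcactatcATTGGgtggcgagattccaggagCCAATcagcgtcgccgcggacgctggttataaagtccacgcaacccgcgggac

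Psmb9, chr17:34187331-34187580, minus strand: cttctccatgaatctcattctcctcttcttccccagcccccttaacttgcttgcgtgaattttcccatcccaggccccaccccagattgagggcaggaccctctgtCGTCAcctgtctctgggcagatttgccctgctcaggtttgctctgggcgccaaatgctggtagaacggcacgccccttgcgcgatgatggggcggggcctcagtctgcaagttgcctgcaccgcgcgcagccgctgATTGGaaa

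Psmb8, chr17:34197945-34198194, plus strand: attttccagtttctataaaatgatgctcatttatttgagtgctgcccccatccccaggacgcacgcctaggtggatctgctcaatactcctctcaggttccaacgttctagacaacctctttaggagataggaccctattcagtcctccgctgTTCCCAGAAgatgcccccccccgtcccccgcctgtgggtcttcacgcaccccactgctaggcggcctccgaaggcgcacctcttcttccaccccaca

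B2m alone of the 8 genes with a window (Tap2 and Nlrc5 had none in the table) held the interferon-stimulated element, at 139 to 130 bases before its start, and a kappaB match followed it at 126 to 117 bases. Both heavy chain genes held GAANNGAAA as TTTCACTTC on the opposite strand, after an overlapping pair of kappaB matches, and their windows shared an identical run of 47 bases. Psmb9 and Tap1 lie head to head, with 225 bases between their starts, so the Psmb9 window covers that whole stretch, and it held only CCAAT and TGACG matches. Psmb8 held the STAT dimer letters TTCCCAGAA at 97 to 89 bases before its start, and Psmb10 held none of the 6. Of 32851 RefSeq windows of the same length, 2.98% held the interferon-stimulated element, 6.31% GAANNGAAA, 7.02% TTCNNNGAA, 7.25% the kappaB consensus, 33.8% CCAAT and 17.8% TGACG. A direct repeat of the kind that PPARg binds with its partner RXR (AGGTCA, any 1 base, AGGTCA) occurred in 0.0335% of windows and in none of the 8 genes. These matches are letters in a window, and no binding was measured.

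B2m encodes the light chain that every classical class I molecule needs. It lies on chromosome 2 from 121973423 to 121978818 (mm9) as 1 transcript of 4 exons. It stood at 6389 FPKM in the floxed library (bounds 6323 to 6454) and at 1549 FPKM in the deficient library (1517 to 1581). The floxed library was the higher one by 4.12-fold as a plain FPKM ratio, and even its lower bound was 4.0 times the upper bound of the other. The relative difference was -2.90. Mean coverage was 8800 reads per base in the floxed and 2094 in the deficient library, and the bounds lay 1.03% either side of the floxed value. By FPKM, B2m ranked 12 of the 10637 genes and loci in the floxed library and 68 in the deficient library.

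Relative to the median gene, the most abundant genes were lower as a class, which bears on how the relative difference of B2m reads. Of 109 genes and loci with a mean of at least 1000 FPKM over both libraries, 50 (45.9%) were at least 2-fold lower and 2 were higher, with a median of -0.78, and 4 of the 109 lay below B2m. The gene at that median, Ptma, stood at 2604 FPKM in the floxed and 2747 FPKM in the deficient library. As deposited, the class was thus not lower at its median. Among 58 named genes of at least 1000 FPKM in the floxed library, the 5 whose difference was nearest to that of B2m, over these 2 libraries, were Tmbim6 (-2.72), Ctsa (-2.72), Map1lc3b (-2.43), Actb (-2.37) and Rps18 (-2.30). Against Actb, the cytoplasmic actin gene, B2m stood at a ratio of 0.27 in the floxed and 0.18 in the deficient library. Whether the trend with abundance plays a part in the B2m difference was not tested.

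The classical heavy chain genes were far below their light chain in both libraries, and neither was 2-fold lower in the deficient one, though the sign for H2-D1 depended on which transcripts were counted. H2-D1 lies on chromosome 17 from 35400039 (mm9). Summed over the 5 transcripts of its locus it stood at 3.06 FPKM in the floxed and 7.24 FPKM in the deficient library, a relative difference of 0.16, or 1.02 as deposited. The transcript with the annotated chain of 8 exons held 2.54 FPKM (bounds 1.66 to 3.41) and 4.14 FPKM (1.46 to 6.82), and these bounds overlap.

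The rest of the H2-D1 sum came from assembled transcripts that match no annotated chain. One of 5 exons, which starts at 35402181 within the gene, was near 0 in the floxed library (upper bound 0.15) and at 3.10 FPKM in the deficient library (0.26 to 5.94). Another spanned 59.6 kb from 35402724 and held 0.52 FPKM in the floxed library, with bounds of 0 to 2.14. With only transcripts of a matching chain, the relative difference of H2-D1 was -0.36 in place of 0.16, and with its most abundant transcript -0.28. H2-K1, on the same chromosome from 34132957 to 34137278, stood at 0.69 FPKM (0.23 to 1.15) in the floxed and 0.89 FPKM (0.38 to 1.4) in the deficient library, with overlapping bounds and under 1 FPKM in both.

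The values of the heavy chain genes are uncertain in a way that those of B2m are not, because they belong to a family of near copies. The H2-D1 and H2-K1 transcripts were identical at 90.7% of 1581 aligned bases and shared an unbroken run of 91 bases. With H2-T23, a nonclassical gene, H2-D1 shared a run of 145 bases, and with H2-Q7 one of 130 bases. Reads from such runs could have been split or dropped, and how they were counted is not given in the sources used here. CD-1 is an outbred strain and the genome build is that of another strain, and the part of shared reads or of strain differences in these values was not tested.

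**Figure D1:**
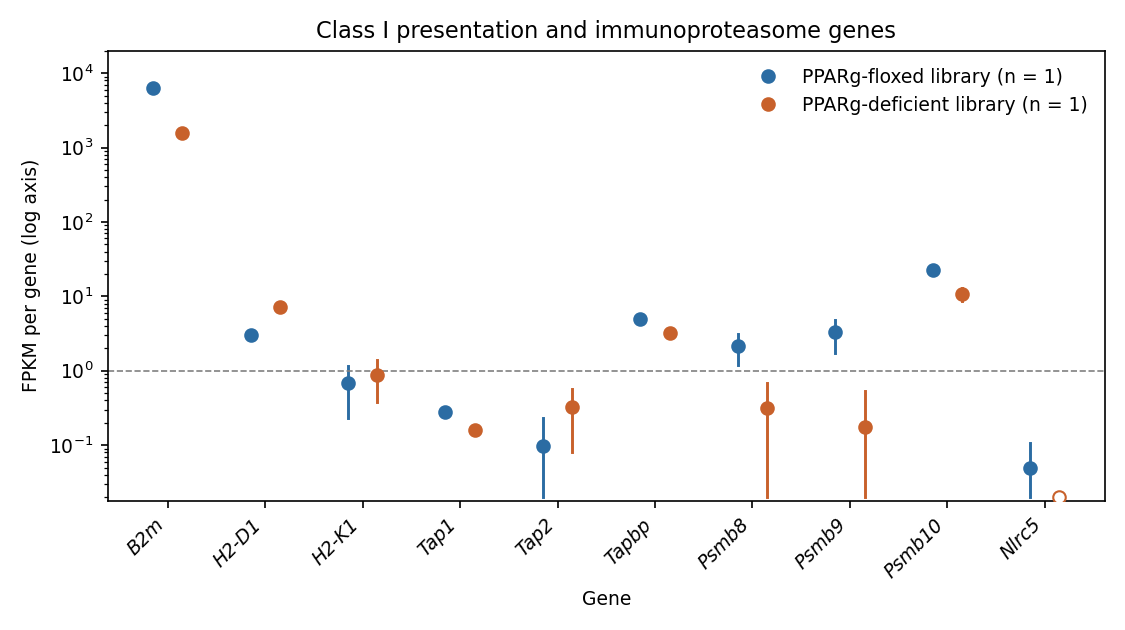
FPKM of each gene (log axis) in the floxed library (blue) and the deficient library (orange), 1 library each. Points are sums over transcripts, bars are the authors' bounds where 1 transcript carries the value (cut at the axis floor of 0.02), the dashed line is 1 FPKM, and the open point is Nlrc5, listed at 0. B2m stands at 6389 and 1549 FPKM, while no other gene passes 22.9 FPKM.

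Peptides reach the class I molecule through the transporter that Tap1 and Tap2 encode, and both genes were near the bottom of the range. Tap1, on chromosome 17 from 34324501 to 34334170, summed to 0.28 FPKM in the floxed and 0.16 FPKM in the deficient library. Tap2, from 34341424 to 34353266, was at 0.097 FPKM (bounds 0 to 0.23) and 0.33 FPKM (0.080 to 0.57), which overlap. In Tap1 the signal sat on different transcripts: the one of 11 exons held 0.28 FPKM (0.069 to 0.49) in the floxed library, and the one of 12 exons held 0.16 FPKM (0 to 0.32) in the deficient library. At this level no relative difference is given for either gene, since a gene near 0 in both libraries takes the value of the common shift.

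Tapbp encodes tapasin, the chaperone that ties the class I molecule to the transporter. It lies on chromosome 17 from 34056423 to 34066235 and stood at 5.03 FPKM in the floxed and 3.23 FPKM in the deficient library. The relative difference was -1.37, but as deposited it was -0.51, short of 2-fold. The gene has 2 transcripts in the files, each of 8 exons, that differ by 3 bases where exon 7 begins, within the coding sequence. The junction is shown from GENCODE M21, with 12 bases of exon 6 first and the 3 extra bases in capitals.

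Longer exon 7, 80 bases: taggctggctggTAGctgcctactgga

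Shorter exon 7, 77 bases: taggctggctggctgcctactgga

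The transcript with the longer exon held 2.85 FPKM (bounds 2.01 to 3.68) in the floxed library and was near 0 in the deficient library, with an upper bound of 0.084. The transcript with the shorter exon held 2.18 FPKM (1.42 to 2.95) and 3.23 FPKM (2.49 to 3.97), which overlap. As deposited, the lower Tapbp sum thus lay in the form with the 3 extra bases, and the FPKM of the other form was not lower. Only reads across that junction can tell the forms apart, and their number is unknown.

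The immunoproteasome genes were lower throughout. Psmb9, which encodes the inducible counterpart of the Psmb6 subunit, lies on chromosome 17 from 34319044 to 34324275. It stood at 3.29 FPKM (bounds 1.74 to 4.85) in the floxed and 0.18 FPKM (0 to 0.53) in the deficient library. The bounds do not meet, with the floxed lower bound 3.27 times the deficient upper bound, and the relative difference was -2.73 (-1.87 as deposited).

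Psmb8, the inducible counterpart of Psmb5, lies between Tap1 and Tap2 from 34335140 to 34338399. It stood at 2.16 FPKM (1.20 to 3.13) in the floxed and 0.31 FPKM (0 to 0.68) in the deficient library, with bounds apart and a relative difference of -2.13 (-1.27 as deposited). Psmb10, the inducible counterpart of Psmb7, lies apart from the others on chromosome 8, from 108459628 to 108462292, and was the most abundant of the 3. It stood at 22.9 FPKM (19.8 to 25.9) and 10.8 FPKM (8.75 to 12.9), with bounds apart and a relative difference of -1.87. As deposited its difference was -1.01, at the edge of 2-fold. Coverage behind these values was thin for Psmb9 (4.81 and 0.17 reads per base) and Psmb8 (3.04 and 0.39), and deeper for Psmb10 (32.2 and 14.8).

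Among genes and loci of like abundance, lower values were no more common than in general. At a mean of 1 to 10 FPKM, where Psmb8, Psmb9, Tapbp and H2-D1 lie, 10.9% of 5894 were at least 2-fold lower. At 10 to 100 FPKM, where Psmb10 lies, 8.76% of 2888 were.

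Ratios within a library need no scaling between libraries, and the estimated ratio of each inducible subunit to its constitutive counterpart was lower in the deficient library. The FPKM ratio of Psmb8 to Psmb5 was 0.48 in the floxed and 0.0065 in the deficient library, with Psmb5 itself at 4.54 and 48.2 FPKM (2.29). The ratio of Psmb9 to Psmb6 was 0.0097 and 0.00049, with Psmb6 at 339 and 363 FPKM. No fold is given for these 2 ratios, because the deficient values of Psmb8 and Psmb9 have bounds that reach 0 and both genes passed the filter through the floxed library alone. The ratio of Psmb10 to Psmb7 was 0.101 and 0.030, a 3.35-fold difference, with Psmb7 at 225 and 357 FPKM. Summed, the inducible subunits made up 4.75% of the FPKM of all 6 catalytic subunit genes in the floxed library and 1.45% in the deficient library. Most of that FPKM thus came from the constitutive genes in both, and no protein was measured. By pair, the inducible share in the floxed library was 32.3% for Psmb8 with Psmb5, 0.96% for Psmb9 with Psmb6 and 9.21% for Psmb10 with Psmb7.

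**Figure D2:**
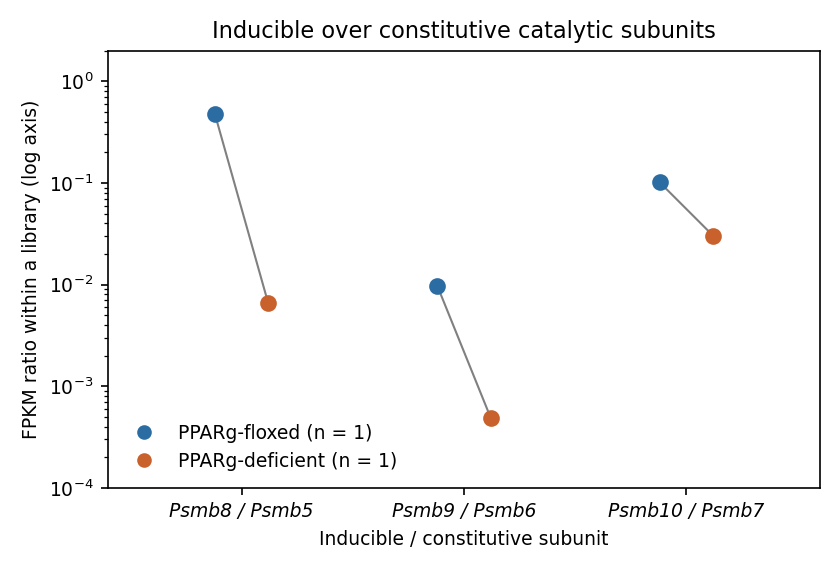
FPKM of an inducible catalytic subunit divided by that of its constitutive counterpart (log axis), in the floxed (blue) and deficient (orange) library, 1 library each. The plotted ratios are lower in the deficient library, by 3.35-fold for Psmb10 over Psmb7, while the deficient points of the other pairs rest on Psmb8 and Psmb9 values whose bounds reach 0.

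Nlrc5 encodes the transactivator of class I genes. Its 49-exon transcript on chromosome 8, from 96996663 to 97051172, was at 0.049 FPKM in the floxed library (bounds 0 to 0.11) and listed at 0 in the deficient library. No fold is given, and its coverage of 0.059 reads per base leaves its level in these cells unresolved.

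Most other class I heavy chain genes that passed the filter were within 2-fold, and 3 were lower. Of 26 entries 4 were not matched and 10 passed the filter, and of these 3 were at least 2-fold lower and 0 higher, beside 11.7% and 10.2% of all genes and loci. Their median was -0.83 (0.034 as deposited, with 3 lower and 0 higher, beside 4.56% and 42.1% of all genes and loci). H2-M3, which encodes a nonclassical molecule that binds N-formyl peptides, was at 25.8 FPKM in the floxed and 4.29 FPKM in the deficient library (-3.20). H2-T22, a nonclassical gene whose product is recognised by some gamma delta T cells, was at 65.1 and 20.3 FPKM (-2.49). Cd1d1, which encodes a lipid-presenting molecule and lies on another chromosome, was at 6.07 and 1.90 FPKM (-2.15). The major transcript of each had bounds apart, floxed higher. H2-T23 (5.48 and 5.46 FPKM) and Mr1 (9.75 and 9.73 FPKM) were level as deposited. Among the named genes for heavy chains, H2-T22 was thus well above H2-D1 and H2-K1 in both libraries, with the reservation on near copies given above. Fcgrt, which encodes the class I-like receptor for antibodies and does not present peptides, was at 34.2 and 65.9 FPKM (0.068).

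Partners of the pathway in the endoplasmic reticulum divided. Of 11 chaperone and translocon genes, all kept, 1 was at least 2-fold lower and 4 higher as deposited, beside 4.56% and 42.1% of all. Relative to the median gene, 4 were lower and 0 higher, beside 11.7% and 10.2%, with a median of -0.38. The lower ones were Sec61a1, a translocon channel gene (467 and 175 FPKM, -2.27), Canx, which encodes calnexin (290 and 162 FPKM, -1.69), Calr, which encodes calreticulin (642 and 451 FPKM, -1.37), and Pdia3, which encodes the disulfide isomerase of the loading complex (72.7 and 64.1 FPKM, -1.04). Hspa5, a general chaperone gene, was at 132 and 427 FPKM (0.83). Calnexin, calreticulin and Pdia3 were thus lower together relative to the median gene. As deposited each fell short of 2-fold: Canx differed by -0.83, Calr by -0.51 and Pdia3 by -0.18. At a mean of 100 to 1000 FPKM, where Sec61a1, Canx and Calr lie, 17.9% of 795 genes and loci were at least 2-fold lower relative to the median.

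Peptide trimming enzymes did not pass 2-fold in either direction. Of 7 matched genes 6 were kept, from -0.85 for Erap1, the aminopeptidase of the endoplasmic reticulum (4.46 and 4.50 FPKM), to 0.49 for Blmh, a bleomycin hydrolase gene (16.2 and 42.8 FPKM). The cytosolic peptidase genes Tpp2 (3.32 and 9.84 FPKM, 0.47), Npepps (2.82 and 7.44 FPKM, 0.28) and Lap3 (35.7 and 79.7 FPKM, 0.28) lay near Blmh. As deposited, these 4 were more than 2-fold higher and 0 were lower. For this list and the next, the shares of all genes and loci were 42.1% higher and 4.56% lower as deposited. Relative to the median they were 10.2% and 11.7%. Of 10 proteasome activator and assembly genes, 2 were at least 2-fold lower and 0 higher, with a median of 0.11 (0 lower and 5 higher as deposited). These were Psme2, an interferon-inducible activator subunit gene (18.2 and 12 FPKM, -1.43), and Pomp, whose product assembles the proteasome (518 and 392 FPKM, -1.26). Psme1, the partner of Psme2 in the same ring, was at 25.2 and 27.2 FPKM (-0.75). The assembly chaperone genes Psmg3 (19.0 and 62.3 FPKM, 0.81), Psmg2 (29.0 and 94.1 FPKM, 0.80) and Psmg1 (1.83 and 7.81 FPKM, 0.78) were close to one another.

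Among transcription factors that act on class I genes, Irf9 and Stat2, which act in the interferon response, were more than 2-fold lower. Irf9 was at 43.2 FPKM in the floxed and 6.69 FPKM in the deficient library (-3.38), and Stat2 at 8.08 and 1.24 FPKM (-2.88). Of 18 entries in the list 14 were kept, with a median of -0.24 (0.62 as deposited). Of the 14 kept, 3 were at least 2-fold lower and 0 higher, beside 11.7% and 10.2% of all genes and loci. As deposited 3 were lower and 2 higher, beside 4.56% and 42.1%. Irf1, another activator of class I genes, was at 8.29 and 8.73 FPKM (-0.79). The factors that hold the promoter complex on which NLRC5 acts did not pass 2-fold: Rfxank was at 5.59 and 5.83 FPKM (-0.81) and Nfyb at 7.09 and 26.8 FPKM (0.92), and Rfx5 stayed under 1 FPKM.

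Interferon receptor and signalling genes were mixed. Of 10 kept genes 4 were at least 2-fold lower and 0 higher, beside 11.7% and 10.2% of all genes and loci. As deposited 1 was lower and 4 higher, beside 4.56% and 42.1%. Irf3 and Irf7 were each listed at 0 in 1 library, and 5 of the 10 passed the filter in 1 library only. Of the genes with at least 5 FPKM, Jak1, a receptor kinase gene, was at 20.5 and 12.1 FPKM (-1.57) and Ifngr1, the interferon gamma receptor gene, at 19.2 and 49.3 FPKM (0.46).

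**Figure D3:**
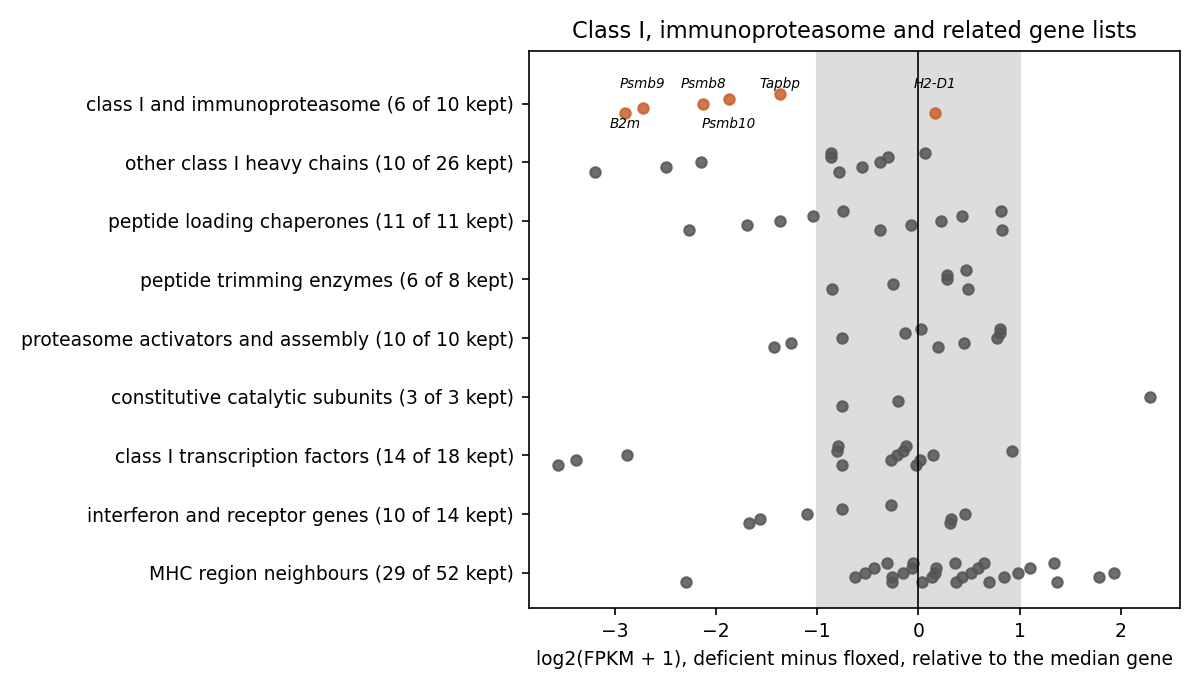
Relative log2 difference, deficient minus floxed, of each kept gene in 9 lists, with 1 library per genotype. Points left of the grey band are at least 2-fold lower and points right of it at least 2-fold higher. Of the class I and immunoproteasome genes 5 lie left of the band, and 3 genes listed at 0 in 1 library (2 in the interferon list and 1 in the MHC region list) are not drawn.

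Most of these genes lie in the MHC region of chromosome 17, so their neighbours were examined. Between Tapbp and H2-M3, from 34056423 to 37411431, 70 genes and unnamed loci passed the filter. Of the 9 that are class I heavy chain genes or belong to the 10 genes, 5 were at least 2-fold lower and 0 higher (4 lower and 1 higher as deposited). Of the other 61, 2 were lower and 8 higher, with a median of 0.17, and as deposited 2 were lower and 31 higher. Over all genes and loci the shares were 11.7% lower and 10.2% higher, or 4.56% and 42.1% as deposited. The 2 were Rps18, a ribosomal protein gene of high abundance (4469 and 1644 FPKM, -2.30), and C2, a complement gene at 1.94 FPKM in the floxed library and listed at 0 in the deficient one. Of the neighbours fixed as a list, the higher ones included Ppp1r18 (0.96 and 12.6 FPKM, 1.93), Lsm2 (2.16 and 18.8 FPKM, 1.79), Flot1 (1.07 and 8.68 FPKM, 1.36) and Tcf19 (2.73 and 13.5 FPKM, 1.10). Lower values were therefore scattered along the region beside genes within 2-fold, such as Brd2 (5.18 and 10.5 FPKM, 0.030) near Psmb9, and the groups were chosen with earlier results known, so the counts are a description.

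**Figure D4:**
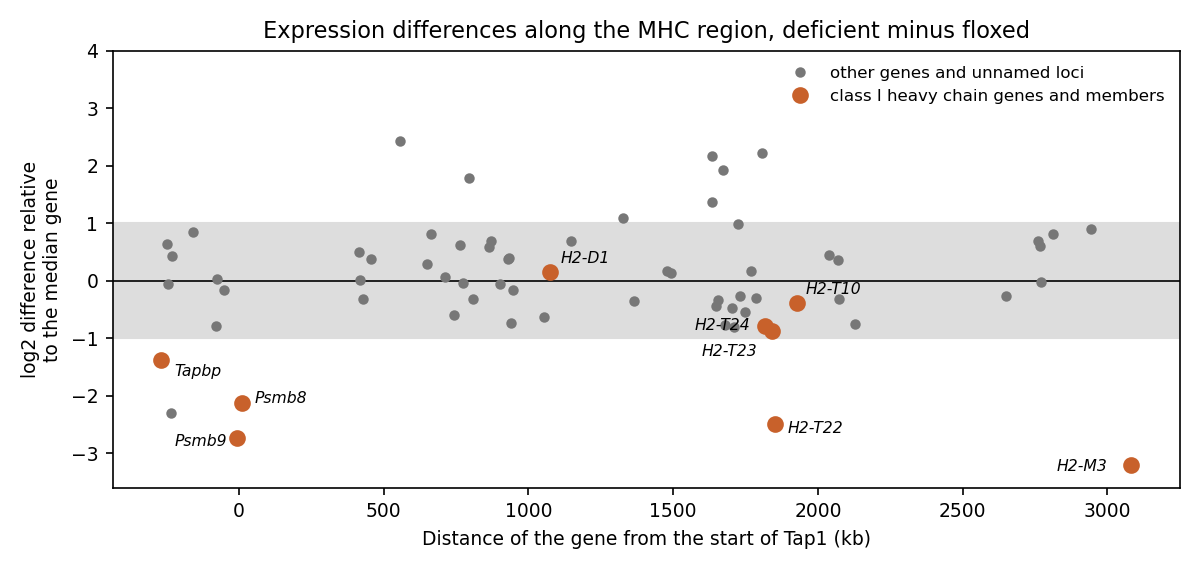
Relative log2 difference, deficient minus floxed, against distance from the start of Tap1 in kb, for 67 genes and unnamed loci of the MHC region with signal in both libraries. Orange points are class I heavy chain genes and genes of the pathway, grey points the others, and the grey band spans 2-fold. Psmb9, Psmb8, Tapbp, H2-T22 and H2-M3 lie below the band.

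Cells of other kinds can carry much class I, so their markers were read beside these values. In bulk RNA, fewer cells of a type and less RNA per cell cannot be told apart. Of 16 matched leukocyte markers 9 were listed at 0 in both libraries, among them Ptprc, Cd3e and Itgam, and the list summed to 6.61 FPKM in the floxed and 15.3 FPKM in the deficient library, most of it Cd14 (4.52 and 12.5 FPKM). Cd68 was at 1.56 and 2.10 FPKM, and Lck and Nkg7 were under 1 FPKM. Of 12 MHC class II genes 7 were at 0 in both, and their sum was 1.39 and 3.81 FPKM. All 6 endothelial markers, Flt1, Tek, Cdh5 and Kdr among them, were at or under 0.14 FPKM. Relative to the median gene, Cd14 differed by 0.43 and Cd68 by -0.59, neither past 2-fold, and the part of such cells in the class I values was not tested.

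Of 13 stromal cell markers 9 were kept, 2 at least 2-fold lower and 1 higher, beside 11.7% and 10.2% of all genes and loci. The lower ones were Alcam (8.80 and 1.98 FPKM, -2.58) and Nt5e (1.86 and 1.01 FPKM, -1.37), and the higher one was Cxcl12 (1.52). The most abundant were Ly6a, which encodes Sca-1 (530 and 841 FPKM), Cxcl12 (60.4 and 318 FPKM), Pdgfrb (21.8 and 74.0 FPKM) and Vcam1 (59.9 and 60.2 FPKM), while Eng and Thy1 were under 1 FPKM. Of 7 fat cell markers Fabp4 (17.6 and 12.7 FPKM) and Adipoq (9.87 and 0.10 FPKM) were kept, Cidec and Cd36 were under 1 FPKM, and the list summed to 27.8 FPKM in the floxed and 12.9 FPKM in the deficient library. Adipoq passed the filter through the floxed library alone, and Fabp4 differed by -1.30 (-0.44 as deposited) with overlapping bounds. Relative to the median gene these 2 markers were thus at least 2-fold lower, as the immunoproteasome genes were, beside 11.7% of all genes and loci. As deposited only Adipoq was, beside 4.56%, and the other 5 markers were not kept. The part of fat cells in the immunoproteasome values was not tested.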

How the data were processed

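RNA sequencing was done on 2 libraries, 1 per genotype label. The authors deposited transcript FPKM with lower and upper bounds and coverage as Cufflinks text. TopHat2 2.0.5, Cufflinks 2.0.2, Cuffdiff 2.0.2 and mm9 are named in the submitters' processing notes without their role. The annotation, filters and strand setting were not given in the sources used here.

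Both files list 45543 transcripts in 25707 loci without symbols. Loci were named by ordered intron and internal exon lengths against GENCODE M21 on the same chromosome and strand: 17736 by a whole chain, 424 by a run of 3 lengths and 967 by a single intron with a terminal exon. All 10 genes were named by a whole chain. Of 37034 chains, 0 matched on a wrong chromosome. FPKM was summed per gene, filtered at 1 FPKM and 300 nt, and centred on the median of 10637 genes and loci. With 1 library in each group nothing was tested, and calls are by size. The filtering, centring and calling were tested on simulated data, with changes placed only in genes more abundant than all of the 10 genes except B2m. Naming and summing were not part of that test.

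The genes and lists were chosen with earlier results of these data known. Named genes are the 10 genes, up to 5 per related list of at least 5 FPKM with the largest difference, up to 4 per marker list by FPKM, and the 5 nearest to B2m; Erap1, Fcgrt, Psme1, Irf3, Irf7, Irf1, Rfx5, C2, Brd2, Ptprc, Cd3e, Itgam, Eng, Thy1, Alcam and Nt5e were added after their values were seen. Some genes of the lists are not reported here. Alternatives varied the pseudocount, filter, scaling, transcripts, fold and bounds. Python 3.11.15, numpy 2.4.6, pandas 2.3.3 and matplotlib 3.10.9 were used.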

Additional observations from a re-analysis of the deposited data

How the results depend on the processing

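No paired analysis was possible because each genotype has 1 library, and for the same reason no replicate could be left out. Of the 10 genes 6 were kept, and 5 of these were at least 2-fold lower, against 11.7% of all genes and loci. That count was 3 with a pseudocount of 5 FPKM (B2m, Psmb9 and Psmb10, against 4.0% of all genes and loci) and 3 at a fold of 4 (B2m, Psmb8 and Psmb9, against 3.87%). With a filter of 5 FPKM, which Psmb8 and Psmb9 do not reach, it was 3 of 4 kept genes, against 13.9%. Under the other alternatives it was 4 or 5, against shares from 2.12% (no filter, all 10 genes kept) to 20.4% (fold of 1.5). The count of higher genes was 0, and 1 as deposited (H2-D1, against 42.1% of all genes and loci). The median of the kept genes, -2.0, was -0.99 with a pseudocount of 5 FPKM and -0.38 with no filter, where all 10 genes enter, Nlrc5 listed at 0 among them. B2m stayed at least 2-fold lower under all scaling, filter, transcript and pseudocount alternatives, from -3.18 to -2.04. Psmb9 did so under those that kept it, from -4.75 to -1.12. It passed the main filter through the floxed library alone, so it had to differ. Psmb10 ranged from -2.21 to -1.01. Psmb8, which also passed the main filter through the floxed library alone, passed 2-fold where kept, except with a pseudocount of 5 FPKM (-0.87). Tapbp fell short of 2-fold as deposited (-0.51), as TPM (-0.65), with a pseudocount of 5 FPKM (-0.72), with no filter (-0.56) and with its most abundant transcript (-0.68), and lost its call at a fold of 4 or when bounds had to be apart. H2-D1 changed sign with a filter of 5 FPKM (-0.053), its most abundant transcript (-0.28) or only matching chains (-0.36). Coverage under 5 reads per base in both libraries limits H2-K1, Tap1, Tap2, Psmb8, Psmb9 and Nlrc5.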

Other observations

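The sum of H2-T22 and H2-M3 kept a nearly level ratio to B2m, and that of H2-D1 and H2-K1 did not. H2-T22 and H2-M3 were picked after their lower values were seen, so their ratio to B2m is partly set by that choice and is a description only. Taken singly, H2-T22 differed by -2.49 and H2-M3 by -3.20, on either side of B2m at -2.90, so the level ratio belongs to the sum only. Among other nonclassical genes, Cd1d1 was lower too (6.07 and 1.90 FPKM, -2.15). By contrast, H2-T23 was at 5.48 and 5.46 FPKM, H2-T24 at 1.39 and 1.51 FPKM, and Mr1 at 9.75 and 9.73 FPKM. The FPKM of B2m was 70.2 times the sum of H2-T22 and H2-M3 in the floxed library and 63.0 times in the deficient library, a 1.12-fold difference. Against the sum of H2-D1 and H2-K1 the ratio was 1704 and 191, an 8.94-fold difference. That sum was low, at 3.75 FPKM in the floxed and 8.13 FPKM in the deficient library. Of the deficient sum, 3.10 FPKM (bounds 0.26 to 5.94) came from an H2-D1 transcript that matches no annotated chain and was near 0 in the floxed library. The size of this difference, and of the next, thus depends on which H2-D1 transcripts are counted. H2-T22 and H2-M3 summed to 24.3 times H2-D1 and H2-K1 in the floxed library and to 3.03 times in the deficient library. Within these libraries no scaling enters such ratios, but each rests on 1 library per genotype, and the reads that near copies of the heavy chain genes share were not resolved.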
